A study of Rattus norvegicus with 8 samples.

Results

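The enzymes that write and erase methyl groups on histones and DNA were followed in primary oligodendrocyte precursor cells (OPCs), proliferating glia whose progeny are the oligodendrocytes that form myelin. They were chosen by symbol from a table of 32662 genes: all rows named Kdm, Kmt2, Kmt5, Setd, Nsd, Ezh, Ehmt, Suv39h, Tet, Dnmt, Prmt or Jmjd, together with Phf8, Phf2, Dot1l and Eed. The rule found 67 rows with 66 symbols, of which 1 (Setd1b) stood on 2 rows and was read from the row with the higher mean. RNA sequencing covered 4 libraries of cells deprived of oxygen and glucose for 6 h (OGD, used in culture to model ischaemia) and 4 libraries of Control cells, for which the labels give no OGD. All cells came from the cerebral cortex of Sprague Dawley rats 1 to 2 days old, by way of mixed glial cultures in DMEM with 20% FBS, from which the cells that did not adhere were taken. Before treatment both groups spent 4 to 5 days on poly-DL-ornithine in Neurobasal medium with PDGF and FGF (each at 10 ng/ml), 2% B27, 2 mM glutamine and 1% penicillin/streptomycin. Nothing in the labels ties the libraries of a group to different cultures, and the spread on which the p-values rest may therefore be technical.

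Methylation of histone tails and of cytosine is laid down by methyltransferases that use S-adenosylmethionine. It is removed chiefly by JmjC-domain lysine demethylases, and 5-methylcytosine is oxidised by the TET enzymes. Both of these are iron-dependent dioxygenases that consume molecular oxygen and 2-oxoglutarate. The KDM1 enzymes are another kind of demethylase, with flavin as cofactor. Several JmjC demethylase genes are known in human and mouse cells as targets of the hypoxia-inducible factors (HIF). In OPCs, the H3K27 methyltransferase Ezh2 and the DNA methyltransferase Dnmt1 are known for roles in lineage progression.

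Levels were FPKM, a unit per length of gene, so that levels of different genes can be set side by side. Each library listed 14095 to 14444 genes above 0. Total fragment numbers are unknown, but steps between low values gave relative depths of 0.816 to 1.18, with Control replicate 1 set to 1. A gene was tested where it reached 1 FPKM in at least 4 libraries. This was so for 62 of the 66 members, each of which reached it in all 8 libraries, and for 11149 genes in all. The 4 others were Dnmt3b, at 0.516 to 1.02 FPKM in OGD and 0.634 to 0.962 FPKM in Control libraries, and Kdm4d, Kdm4dl1 and Dnmt3l, listed at 0 in every library. Changes are differences of log2(FPKM + 1), OGD minus Control, which understate the change of low genes, and are given with their standard error (SE). A gene was called higher or lower at a Benjamini-Hochberg adjusted p under 0.05 from limma over all tested genes.

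The cultures expressed precursor markers at a high level, and these were lower in OGD. Summed over 10 listed markers, of which 9 were matched, OGD libraries held 1513 to 1753 FPKM and Control libraries 2339 to 2485 FPKM. Of the 9 markers, 6 were called lower and 0 higher. Over all tested genes, 22.7% were called higher and 26.8% lower, the shares to set beside each marker count given here. Microglial markers were present and lower in OGD, with 11 of 12 tested markers called lower, a median log2 change of -1.11, and a sum of 71.6 to 130.2 FPKM in OGD against 212 to 345 FPKM in Control libraries. Astrocyte markers summed to 168 to 177 FPKM in OGD and 174 to 187 FPKM in Control libraries. Of 6 tested, 2 were lower and 0 higher. Most of this sum was Slc1a3, Sparcl1 and Sox9, while Gfap averaged 0.480 FPKM in OGD and 2.16 FPKM in Control. Aldh1l1, Aqp4 and Gjb6 did not reach the filter. Neuronal markers summed to 311 to 398 FPKM in OGD and 327 to 399 FPKM in Control libraries, with 2 of 11 higher and 3 lower. Map2 alone averaged 197 FPKM in OGD and 225 FPKM in Control, while Rbfox3 averaged 5.68 FPKM in OGD and 5.23 FPKM in Control. Such sums do not give the share of each cell type. No vascular or stromal marker reached the filter; 4 of 11 matched markers were at 0 in every library, and the sum was at most 0.350 FPKM in OGD and 0.437 FPKM in Control libraries. In such bulk samples fewer cells of a type and less RNA per cell cannot be told apart, and the part of the microglial and precursor markers in the results below was not tested.

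Transcripts of the oxygen-dependent demethylases were mostly higher after OGD, while methyltransferases moved in both directions, with more called higher than lower. Of 20 tested JmjC demethylases and TET dioxygenases, 13 (65%) were called higher and 1 (5%) lower; over all tested genes, 22.7% were called higher and 26.8% lower. Of 29 tested methyltransferases and their subunits, 11 (37.9%) were called higher and 4 (13.8%) lower. The median log2 change was 0.39 for the demethylases, 0.23 for the methyltransferases and -0.04 for all tested genes. Among all 62 tested members, 30 were higher, 5 were lower and 27 did not pass, so that 35 were called, where 49.5% of all tested genes were. A log2 change of at least 0.5 was reached by 12 called members with higher and 1 with lower levels, where 10.3% and 13% of all tested genes were called at that size. OGD and Control libraries were separate for 14 of the 20 demethylases, 13 with OGD above and 1 with OGD below. For the methyltransferases the same count was 10 of 29, with 7 above and 3 below. Over all tested genes, every OGD library lay above every Control library in 20.7% and below in 24.1%.

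**Figure D1:**
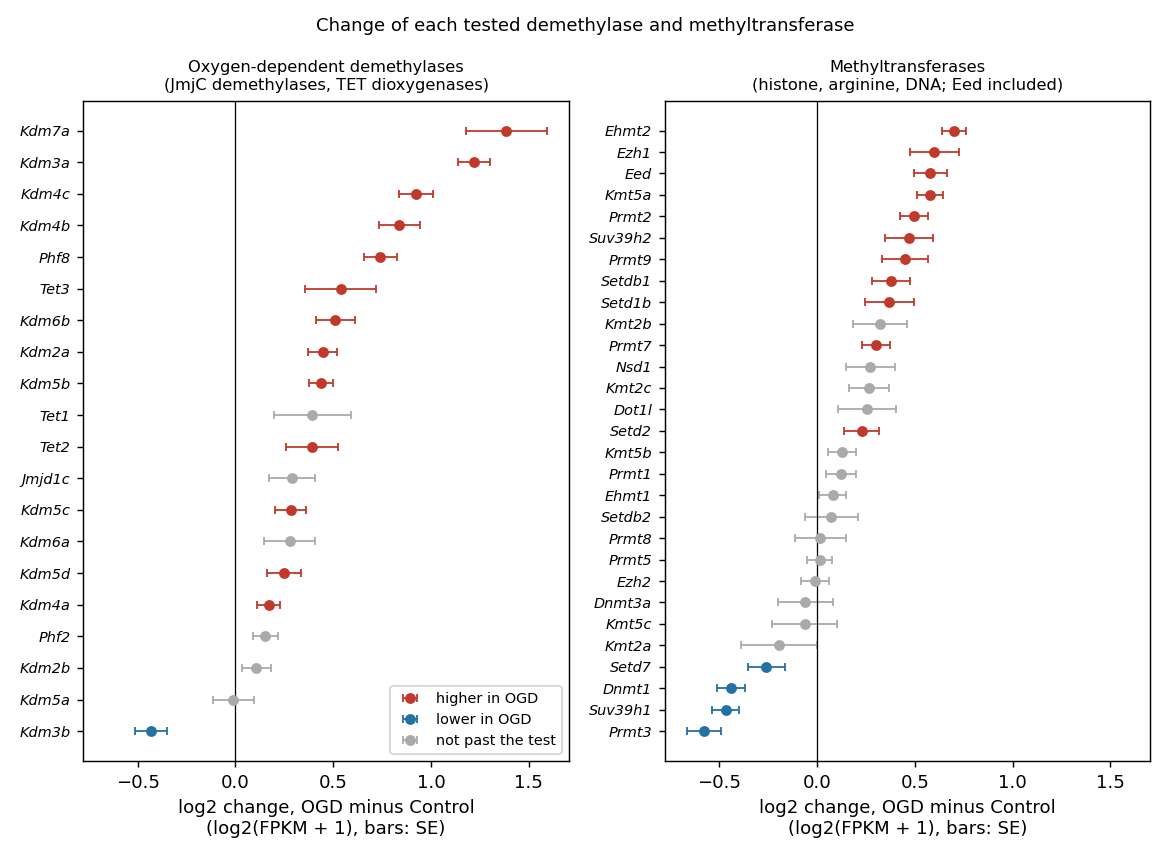
log2 change (OGD minus Control, x axis) of each tested oxygen-dependent demethylase (left, 20 genes) and methyltransferase (right, 29 genes); bars are SE, and colour gives the limma call. The demethylases run up to 1.39 for Kdm7a with 1 called lower (Kdm3b), and the methyltransferases run from -0.58 for Prmt3 to 0.70 for Ehmt2.

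The libraries were not alike for these genes. Control replicate 1 had the lowest value of its group for 15 of the 20 demethylases and 12 of the 29 methyltransferases, against 33.3% of all tested genes. OGD replicate 4 had the lowest value of its group for 15 of the 20 and 15 of the 29, against 29.5% of all tested genes. With Control replicate 1 and OGD replicate 4 both left out, 13 demethylases were called higher and 1 lower, with a median log2 change of 0.40; Kdm5d and Kdm4a then lost their calls, and Tet1 and Jmjd1c were called. With 1 library left out, 9 demethylases were called higher without Control replicate 1, Control replicate 4 or OGD replicate 1, and at most 14, without OGD replicate 4.

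The H3K9 demethylase family KDM3 split. Kdm3a (ENSRNOG00000007814), which removes mono- and dimethylation of H3K9, was at 44.6, 53.7, 49.9 and 41.9 FPKM in OGD libraries and at 18.8, 19.8, 19.7 and 20.6 FPKM in Control libraries. Every OGD library held more than any Control library, and the mean was 2.41 times that of Control (log2 change 1.22, SE 0.08, limma adjusted p = 1.51e-06). Its relative Kdm3b (ENSRNOG00000050200), the only demethylase called lower, was at 17.3, 19.5, 17.8 and 15.2 FPKM in OGD libraries and at 22.2, 24.3, 24.6 and 24.2 FPKM in Control libraries (log2 change -0.43, SE 0.08, adjusted p = 0.00131). Within a library, Kdm3a stood at 2.58 to 2.80 times Kdm3b in OGD and at 0.801 to 0.854 times Kdm3b in Control. The order of the pair was reversed in all 4 OGD libraries. The remaining family member, Jmjd1c, was at 49.0, 54.9, 41.8 and 37.6 FPKM in OGD and 32.0, 41.2, 38.1 and 37.0 FPKM in Control libraries, which overlapped (log2 change 0.29, SE 0.12, adjusted p = 0.0577). Without OGD replicate 4 Jmjd1c was called higher (adjusted p = 0.0135), as it was without Control replicate 2 (0.0464) and without Control 1 and OGD 4 together (0.0282).

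All 3 tested members of the KDM4 family, which acts on H3K9 and H3K36 trimethylation, were higher. Kdm4c (ENSRNOG00000006644) was at 10.4, 12.02, 12.5 and 11.7 FPKM in OGD libraries and at 5.13, 5.60, 6.09 and 5.83 FPKM in Control libraries, a 2.06-fold higher mean (log2 change 0.92, SE 0.09, adjusted p = 1.60e-05). Kdm4b (ENSRNOG00000049221) was at 29.2, 33.5, 25.0 and 29.4 FPKM in OGD libraries and at 16.4, 13.4, 18.0 and 15.9 FPKM in Control libraries (log2 change 0.84, SE 0.10, adjusted p = 9.60e-05). For both genes the groups were far apart, with the lowest OGD library above the highest Control library. Kdm4a, the most abundant of the family in Control libraries at 33.5 ± 0.833 FPKM (SD, n = 4), moved least: it was at 37.8 ± 1.75 FPKM in OGD (log2 change 0.17, SE 0.06, adjusted p = 0.0350). That call was lost under 10 of 17 alternative settings (adjusted p 0.0145 to 0.0971), among them leaving out Control replicate 1, 3 or 4 or OGD replicate 1, 3 or 4. Kdm4c was still the lowest of the 3 in every OGD library, and its level in OGD was below that of Kdm4b in Control.

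The KDM7 family, whose members read H3K4 trimethylation and remove other marks, included the largest demethylase change. Kdm7a (ENSRNOG00000052445), a demethylase of H3K9 and H3K27, was at 12.2, 16.2, 9.83 and 6.93 FPKM in OGD libraries and at 2.76, 4.44, 3.44 and 3.59 FPKM in Control libraries. The groups did not overlap, but the OGD libraries themselves spanned more than a doubling, with replicate 4 lowest (log2 change 1.39, SE 0.21, adjusted p = 0.000307). Phf8 (ENSRNOG00000002708), which removes H3K9 and H4K20 methylation, was at 12.6, 12.9, 12.1 and 10.9 FPKM in OGD libraries and at 6.37, 7.57, 6.46 and 6.98 FPKM in Control libraries (log2 change 0.74, SE 0.09, adjusted p = 6.11e-05). Phf2, an H3K9 demethylase of the same family, was at 23.6 ± 0.889 FPKM in OGD and 21.1 ± 1.15 FPKM in Control (SD, n = 4 each); its groups did not overlap but it did not pass (log2 change 0.15, SE 0.07, adjusted p = 0.0736).

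Promoter windows of the 5 members with the largest log2 rises, and of Ehmt2, the methyltransferase with the largest rise, are shown because Jmjd6, Kdm7a, Kdm3a, Kdm4c and Kdm4b moved in the same direction in the deprived cells. Capitals mark the core of the HIF response element, ACGTG or GCGTG, on either strand; a match on the opposite strand reads CACGT or CACGC. The windows run from 250 bases before to 50 bases after a transcript start, 5′ to 3′ on the gene's strand, from RefSeq (build GRCr8, which is not the build of the expression table).
Jmjd6 chr10:102545937-102546236 (minus strand): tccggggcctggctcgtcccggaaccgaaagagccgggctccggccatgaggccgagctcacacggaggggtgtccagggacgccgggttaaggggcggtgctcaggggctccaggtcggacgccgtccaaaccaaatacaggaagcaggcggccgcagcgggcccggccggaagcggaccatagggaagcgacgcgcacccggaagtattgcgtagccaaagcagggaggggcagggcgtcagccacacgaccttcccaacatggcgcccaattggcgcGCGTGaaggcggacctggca
Kdm7a chr4:68992930-68993229 (minus strand): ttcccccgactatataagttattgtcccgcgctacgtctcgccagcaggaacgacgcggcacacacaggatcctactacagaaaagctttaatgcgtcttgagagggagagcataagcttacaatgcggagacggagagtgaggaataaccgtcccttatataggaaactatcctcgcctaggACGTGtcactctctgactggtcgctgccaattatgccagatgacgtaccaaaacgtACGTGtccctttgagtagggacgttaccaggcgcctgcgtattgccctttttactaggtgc
Kdm3a chr4:105233062-105233361 (minus strand): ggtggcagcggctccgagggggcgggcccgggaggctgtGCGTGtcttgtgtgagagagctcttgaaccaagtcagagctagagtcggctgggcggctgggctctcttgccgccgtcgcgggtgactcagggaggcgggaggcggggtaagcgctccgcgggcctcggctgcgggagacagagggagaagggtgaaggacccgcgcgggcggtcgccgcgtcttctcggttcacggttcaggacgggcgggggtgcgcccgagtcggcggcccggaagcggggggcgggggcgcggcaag
Kdm4c chr5:93146787-93147086 (plus strand): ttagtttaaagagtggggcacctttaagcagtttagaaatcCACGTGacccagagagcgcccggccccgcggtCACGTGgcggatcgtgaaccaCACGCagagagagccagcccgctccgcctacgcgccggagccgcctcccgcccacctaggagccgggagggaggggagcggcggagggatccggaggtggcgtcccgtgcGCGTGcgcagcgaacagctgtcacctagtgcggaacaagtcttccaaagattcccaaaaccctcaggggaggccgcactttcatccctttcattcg
Kdm4b chr9:1245653-1245952 (plus strand): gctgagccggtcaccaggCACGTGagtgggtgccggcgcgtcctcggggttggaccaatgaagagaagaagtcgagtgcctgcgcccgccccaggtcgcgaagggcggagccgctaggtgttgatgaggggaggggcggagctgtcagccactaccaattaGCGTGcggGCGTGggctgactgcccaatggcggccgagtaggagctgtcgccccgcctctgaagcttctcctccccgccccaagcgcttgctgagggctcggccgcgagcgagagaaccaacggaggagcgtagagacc
Ehmt2 chr20:3940661-3940960 (minus strand): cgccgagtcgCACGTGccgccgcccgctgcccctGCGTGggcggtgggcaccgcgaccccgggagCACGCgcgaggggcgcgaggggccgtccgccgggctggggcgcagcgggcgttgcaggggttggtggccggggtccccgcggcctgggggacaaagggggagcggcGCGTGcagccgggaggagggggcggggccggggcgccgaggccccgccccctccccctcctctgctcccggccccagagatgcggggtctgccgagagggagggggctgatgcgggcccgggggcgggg
The Kdm4c window held 6 matches, that of Ehmt2 5 and that of Kdm4b 4, counting each strand; in all 3 the ACGTG matches lay on both strands of a CACGTG palindrome, which is also an E-box. The Kdm7a window held 2, and those of Kdm3a and Jmjd6 1 each. Kdm7a has 4 windows in the table, of which 2 held a match, and Kdm3a has 2, of which 1 did; the window with most matches is shown. Of members called lower, Kdm3b and Dnmt1 had no match in their single windows, and Suv39h1 held 1 match in 1 of its windows. Kdm2a, Kdm4a, Kdm5c, Kdm5d, Kdm6b, Kdm8 and Eed, which were called higher, had none in theirs. Among members that did not pass, Kdm2b and Kdm5a held 1 match each. Dot1l, also not past, held 7, the most of any member window, and 1 window of Kmt2c, not past either, held 5. Of 33469 windows of all genes, 41.6% held at least 1 match to either form (19.3% to ACGTG and 29.7% to GCGTG). Of 77 windows that matched 56 of the 66 members by symbol, 51 (66.2%) held one. The share was 48.3% of 29 windows of the oxygen-dependent demethylases and 76.3% of 38 windows of the methyltransferases. These are shares of windows and not of genes. Some genes, among them Kmt2c and Setdb2, have several windows, and windows starting a few bases apart were counted separately. A match is a run of letters and not a bound site, and these windows hold no enhancers.

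Besides Kdm7a, the set held the KDM6 demethylases of H3K27, which oppose PRC2; Kdm6b was higher and Kdm6a did not pass. Kdm6b (ENSRNOG00000037613) was at 21.9, 27.001, 24.0 and 18.9 FPKM in OGD libraries and at 15.3, 16.8, 15.7 and 15.0 FPKM in Control libraries (log2 change 0.51, SE 0.10, adjusted p = 0.00170). Kdm6a, its X-linked relative, was low, at 1.70 to 2.60 FPKM in OGD and 1.39 to 1.78 FPKM in Control libraries (log2 change 0.28, SE 0.13, adjusted p = 0.104), but was called higher with quantile normalization (adjusted p = 0.0328). The ratio of Kdm6a to Kdm6b was 0.0717 to 0.106 in OGD and 0.0851 to 0.116 in Control libraries, with overlap.

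Among H3K4 demethylases of the KDM5 family, 3 of 4 were called higher, each by less than 0.5 on the log2 scale. Kdm5b (ENSRNOG00000060544) was at 23.7, 25.6, 24.3 and 25.1 FPKM in OGD and 17.4, 18.3, 17.3 and 18.7 FPKM in Control libraries (log2 change 0.44, SE 0.06, adjusted p = 0.000239). Kdm5c (ENSRNOG00000057706), X-linked and the most abundant demethylase of the set, was at 57.7, 57.3, 53.3 and 50.6 FPKM in OGD and 39.4, 50.4, 45.6 and 44.3 FPKM in Control libraries (log2 change 0.28, SE 0.08, adjusted p = 0.0136); its lowest OGD library lay just above its highest Control library. Kdm5d, its Y-linked counterpart, was detected in all 8 libraries, at 5.30 to 5.94 FPKM in OGD and 4.44 to 4.97 FPKM in Control libraries (log2 change 0.25, SE 0.09, adjusted p = 0.0322), and its call was lost under 9 of 17 alternatives (adjusted p 0.0149 to 0.0804), among them leaving out Control replicate 1, 2 or 4 or OGD replicate 1, 2 or 3. Kdm5a was at 11.3 to 14.3 FPKM in OGD and 11.0 to 15.0 FPKM in Control libraries and did not pass (log2 change -0.01, SE 0.10, adjusted p = 0.941).

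Of the H3K36 demethylases, Kdm2a was higher and Kdm2b did not pass. Kdm2a was at 26.6 ± 1.90 FPKM in OGD and 19.3 ± 1.23 FPKM in Control (SD, n = 4 each; log2 change 0.45, SE 0.07, adjusted p = 0.000658), without overlap. Kdm2b, part of a variant Polycomb complex, was at 17.4, 18.4, 19.3 and 16.9 FPKM in OGD and 15.6, 16.3, 18.1 and 16.5 FPKM in Control libraries (log2 change 0.11, SE 0.07, adjusted p = 0.243). Of the 7 members listed as HIF targets reported in other cells (Kdm3a, Kdm4b, Kdm4c, Kdm2b, Kdm5b, Kdm5c and Kdm6b), 6 were called higher and Kdm2b was not. Their median log2 change was 0.51. All 7 are oxygen-dependent demethylases, a class with 13 of 20 tested members (65%) called higher, against 22.7% of all tested genes. The list was chosen with earlier results of these data known.

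The TET enzymes, which turn 5-methylcytosine into 5-hydroxymethylcytosine, all had higher means in OGD but a wide spread. Tet3 (ENSRNOG00000011387), the most abundant, was at 15.4, 18.6, 14.7 and 9.30 FPKM in OGD libraries and at 7.22, 10.4, 10.7 and 9.68 FPKM in Control libraries. OGD replicate 4 lay within the Control range, and the call (log2 change 0.54, SE 0.18, adjusted p = 0.0291) was lost when any of Control replicates 1 (adjusted p = 0.0811) and 4 (0.0525) or OGD replicates 1 (0.0713), 2 (0.0783) and 3 (0.0642) was left out, and with no filter (0.0674). Tet2 was at 7.22 to 10.2 FPKM in OGD and 5.11 to 7.19 FPKM in Control libraries (log2 change 0.39, SE 0.13, adjusted p = 0.0308), a call lost with no filter and without Control replicate 1 or 4 or OGD replicate 1 or 2 (adjusted p 0.0130 to 0.0863 over the alternatives). Tet1 was at 2.48 to 5.72 FPKM in OGD and 1.94 to 3.38 FPKM in Control libraries and did not pass (log2 change 0.39, SE 0.20, adjusted p = 0.122), but was called higher without OGD replicate 4 (adjusted p 0.0141 to 0.300 over the alternatives) and without Control 1 and OGD 4 together.

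Oxygenases of the same fold that act on other substrates included the largest change of any member. Jmjd6 (ENSRNOG00000000250), a lysyl hydroxylase of splicing proteins, was at 42.5, 47.7, 47.1 and 40.3 FPKM in OGD libraries and at 14.1, 11.9, 14.8 and 13.5 FPKM in Control libraries, a 3.27-fold higher mean with the groups far apart (log2 change 1.64, SE 0.08, adjusted p = 2.26e-07). Jmjd4, a hydroxylase of the translation termination factor eRF1, was at 4.16 to 4.43 FPKM in OGD and 2.63 to 3.94 FPKM in Control libraries (log2 change 0.41, SE 0.12, adjusted p = 0.0130). Kdm8, now known as an arginyl hydroxylase, was called higher with overlapping groups (log2 change 0.39, SE 0.13, adjusted p = 0.0340), a call lost under 6 of 17 alternatives (adjusted p 0.0243 to 0.164), among them leaving out Control replicate 1 or 2 or OGD replicate 2 or 4. Jmjd7 (log2 change 0.32) and Jmjd8 (-0.16) did not pass, but Jmjd7 was called higher under 3 of 17 alternatives (adjusted p 0.0401 to 0.292), among them leaving out OGD replicate 4, alone or with Control replicate 1. The flavin-dependent H3K4 demethylases did not pass either. Kdm1a (LSD1) was at 37.3, 36.3, 39.4 and 44.6 FPKM in OGD and 39.8, 40.9, 37.3 and 41.6 FPKM in Control libraries (log2 change -0.02, SE 0.08, adjusted p = 0.843), and Kdm1b was at 3.40 to 4.90 FPKM in OGD and 4.05 to 5.27 FPKM in Control libraries (log2 change -0.21, SE 0.12, adjusted p = 0.153).

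**Figure D2:**
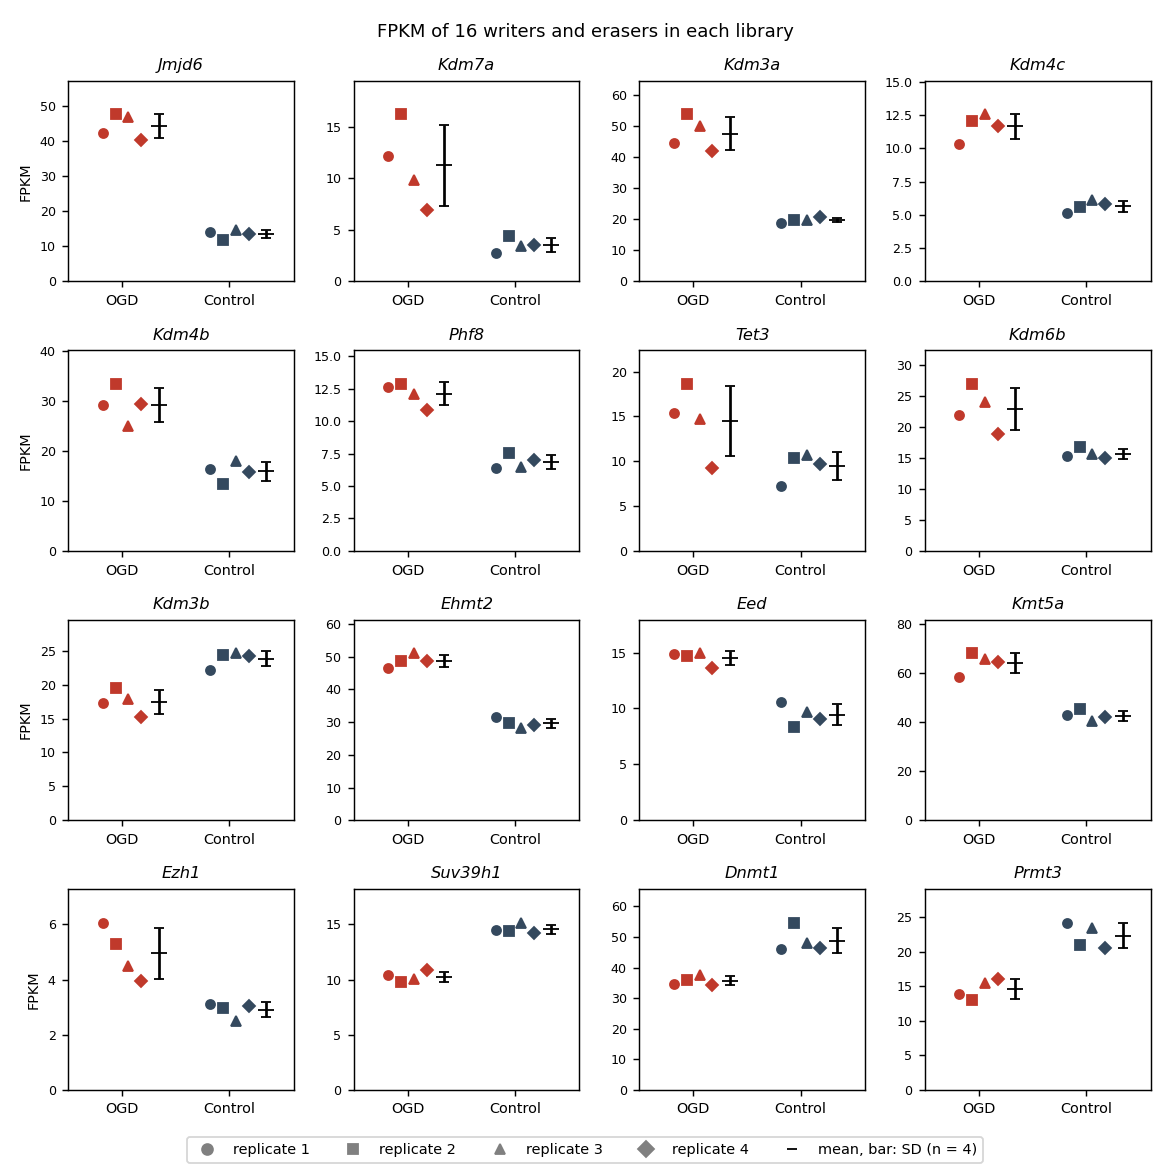
FPKM (y axis, from 0) of 16 writers and erasers in each of the 4 OGD (left, red) and 4 Control (right, dark) libraries, one panel per gene, with marker shape giving the replicate and the black bar the mean and SD. Jmjd6 lies at 40.3 to 47.7 in OGD and 11.9 to 14.8 in Control libraries, Tet3 overlaps through OGD replicate 4, and Kdm3b, Suv39h1, Dnmt1 and Prmt3 lie lower in every OGD library.

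Among the writers, the 6 tested H3K9 methyltransferases changed in both directions, with 3 higher, 1 lower and 2 not past the test. Ehmt2 (ENSRNOG00000030630), the G9a enzyme of H3K9 dimethylation, was at 46.5, 48.6, 51.0 and 48.5 FPKM in OGD libraries and at 31.5, 29.6, 28.1 and 29.2 FPKM in Control libraries (log2 change 0.70, SE 0.06, adjusted p = 9.42e-06). Both groups were tight and did not overlap. Its partner Ehmt1 (GLP) was at 14.9 ± 0.598 FPKM in OGD and 14.0 ± 0.779 FPKM in Control (SD, n = 4 each) and did not pass (adjusted p = 0.367). Suv39h1 (ENSRNOG00000039576), the enzyme of heterochromatic H3K9 trimethylation, was at 10.4, 9.81, 10.1 and 10.9 FPKM in OGD libraries and at 14.5, 14.4, 15.2 and 14.2 FPKM in Control libraries (log2 change -0.47, SE 0.07, adjusted p = 0.000280). Its relative Suv39h2 was at 6.93, 5.06, 7.23 and 7.60 FPKM in OGD and 4.34, 4.07, 5.29 and 4.43 FPKM in Control libraries (log2 change 0.47, SE 0.12, adjusted p = 0.00931), overlapping through OGD replicate 2. Setdb1, which silences retroelements, was called higher (log2 change 0.38, SE 0.10, adjusted p = 0.00839) and Setdb2 did not pass (0.07).

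In the Polycomb complex PRC2, which writes H3K27 methylation, the main catalytic subunit did not pass while Ezh1 and Eed were higher. Ezh2 was at 26.96, 26.95, 27.5 and 31.2 FPKM in OGD and 27.3, 28.9, 26.98 and 30.3 FPKM in Control libraries (log2 change -0.01, SE 0.07, adjusted p = 0.906), with full overlap. Ezh1 (ENSRNOG00000020336), the alternative catalytic subunit, was at 6.06, 5.31, 4.50 and 3.94 FPKM in OGD libraries and at 3.10, 2.96, 2.50 and 3.04 FPKM in Control libraries (log2 change 0.60, SE 0.13, adjusted p = 0.00249). Eed (ENSRNOG00000017509), the non-catalytic subunit that binds trimethylated H3K27, was at 14.9, 14.7, 14.9 and 13.6 FPKM in OGD libraries and at 10.5, 8.33, 9.71 and 9.10 FPKM in Control libraries (log2 change 0.58, SE 0.08, adjusted p = 0.000246). Neither gene overlapped between groups. Of 8 tested PRC2 partners outside the set, 1 was higher (Suz12, a core subunit, 21.1 ± 0.455 FPKM in OGD and 14.8 ± 0.236 FPKM in Control, SD, n = 4 each; adjusted p = 0.000102) and 2 were lower. Of these Rbbp7, a histone-binding subunit shared with other complexes, was at 65.0 ± 5.25 FPKM in OGD and 87.2 ± 2.29 FPKM in Control (adjusted p = 0.000489).

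Kmt5a (ENSRNOG00000001062), the H4K20 monomethyltransferase whose level follows the cell cycle, was at 58.5, 68.0, 65.8 and 64.4 FPKM in OGD libraries and at 42.9, 45.2, 40.4 and 42.1 FPKM in Control libraries (log2 change 0.58, SE 0.07, adjusted p = 5.63e-05), without overlap. Kmt5b (0.13) and Kmt5c (-0.06), which add further methyl groups at H4K20, did not pass, nor did Dot1l, the H3K79 methyltransferase (0.26, SE 0.15, adjusted p = 0.169). Of the H3K36 methyltransferases, Setd2 was called higher (log2 change 0.23, SE 0.09, adjusted p = 0.0489) and lost the call under 12 of 17 alternatives (adjusted p 0.0333 to 0.1195), among them leaving out Control replicate 1, 3 or 4 or OGD replicate 1, 2 or 3, and Nsd1 did not pass (0.27, adjusted p = 0.0939). Nsd1 and Dot1l were called higher without OGD replicate 4, with lowest adjusted p over the alternatives of 0.00768 for Nsd1 and 0.0185 for Dot1l.

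Of 5 tested H3K4 methyltransferases 1 was higher, 1 was lower and 3 did not pass. Kmt2a (MLL1) was at 5.32 to 9.98 FPKM in OGD and 6.01 to 11.0 FPKM in Control libraries (log2 change -0.19, SE 0.19, adjusted p = 0.427); the lowest value of each group was that of OGD replicate 4 and Control replicate 1. Kmt2b (0.32, adjusted p = 0.0757) and Kmt2c (0.27, adjusted p = 0.0514) did not pass; Kmt2b was called higher without OGD replicate 4, and Kmt2c under 6 of 17 alternatives (adjusted p 0.0250 to 0.131), among them a pseudocount of 0.1, quantile normalization, no trend, and leaving out Control replicate 2 or OGD replicate 3. Setd7, an H3K4 monomethyltransferase, was lower (log2 change -0.26, SE 0.09, adjusted p = 0.0401), a call lost under 8 of 17 alternatives (adjusted p 0.0140 to 0.1204), among them leaving out Control replicate 2, 3 or 4 or OGD replicate 1, 3 or 4. The 2 rows of Setd1b went opposite ways: the one with the higher mean was at 18.1 ± 3.42 FPKM in OGD and 13.6 ± 1.06 FPKM in Control (log2 change 0.37, adjusted p = 0.0291, a call lost without Control replicate 1, 3 or 4 or OGD replicate 1, 2 or 3) and the other at 6.75 ± 1.42 FPKM in OGD and 8.98 ± 0.837 FPKM in Control (log2 change -0.38, adjusted p = 0.0340; SD, n = 4 each). Its direction is therefore uncertain. Kmt2d shares a row with Prkag1, a kinase subunit gene, and was counted on neither side. That row was at 29.7, 30.7, 27.4 and 26.9 FPKM in OGD and 24.8, 18.9, 20.9 and 22.6 FPKM in Control libraries (log2 change 0.38, SE 0.09, adjusted p = 0.00407).

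The maintenance DNA methyltransferase Dnmt1 (ENSRNOG00000039859) was at 34.7, 35.9, 37.6 and 34.4 FPKM in OGD libraries and at 46.1, 54.7, 48.1 and 46.3 FPKM in Control libraries. It was lower in every OGD library (log2 change -0.44, SE 0.07, adjusted p = 0.000468). Dnmt3a, the de novo enzyme, was at 14.8, 17.6, 14.3 and 10.9 FPKM in OGD and 11.9, 16.7, 15.6 and 15.7 FPKM in Control libraries and did not pass (log2 change -0.06, SE 0.14, adjusted p = 0.751). Of 14 tested partners of DNA methylation and demethylation, 4 were higher and 7 lower. Gadd45g, a stress-induced gene tied to DNA repair and demethylation, was at 36.3 ± 4.44 FPKM in OGD and 9.29 ± 1.05 FPKM in Control (adjusted p = 3.54e-07). Apobec1, a cytidine deaminase, was at 3.33 ± 0.258 FPKM in OGD and 7.28 ± 2.84 FPKM in Control (adjusted p = 0.00243; SD, n = 4 each). Among Control libraries Apobec1 was highest in replicate 4, at 11.5 FPKM, as were the microglial markers. Any microglial part in its fall was not tested. Uhrf1, the factor that brings DNMT1 to replicated DNA, was at 16.5 ± 2.00 FPKM in OGD and 31.2 ± 3.07 FPKM in Control (SD, n = 4 each; adjusted p = 4.62e-05), and is named after its values were seen.

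Of 7 protein arginine methyltransferases, 3 were higher, 1 was lower and 3 did not pass. Prmt3 (ENSRNOG00000014829), which methylates a small ribosomal subunit protein, was at 13.9, 13.0, 15.5 and 16.1 FPKM in OGD libraries and at 24.2, 20.9, 23.5 and 20.6 FPKM in Control libraries, the largest fall of any member (log2 change -0.58, SE 0.09, adjusted p = 0.000320). Prmt2 (0.50), Prmt9 (0.45) and Prmt7 (0.30) were higher without overlap. The main enzymes of the family were not past the test. Prmt1, the most abundant member of all, was at 89.8, 84.0, 89.0 and 104 FPKM in OGD and 87.3, 84.4, 77.2 and 86.7 FPKM in Control libraries (adjusted p = 0.195), and was called higher with quantile normalization (adjusted p = 0.0109). Prmt5, the main enzyme of symmetric dimethylarginine, was at 32.4 ± 1.91 FPKM in OGD and 32.1 ± 1.30 FPKM in Control (SD, n = 4 each; adjusted p = 0.886).

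The remaining 5 SET-domain proteins have other or no known substrates. Setd3, an actin histidine methyltransferase (log2 change 0.37), and Setd4 (0.40) were higher without overlap, and Setd6 (-0.02) did not pass. Kmt2e, which has no known methyltransferase activity, was at 62.1, 71.2, 65.2 and 50.2 FPKM in OGD and 53.1, 62.2, 64.8 and 61.0 FPKM in Control libraries (adjusted p = 0.795). Setd5 was at 44.2, 44.9, 35.7 and 30.8 FPKM in OGD and 31.6, 36.4, 35.0 and 32.2 FPKM in Control libraries (adjusted p = 0.205), and was called higher without OGD replicate 4 (adjusted p = 0.0255).

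The ratio within a library is given for 11 pairs of related enzymes, as a description with no test, since the pairs were chosen after the levels of their genes were seen. In 7 pairs OGD and Control libraries did not overlap. No share over ratios of other genes was computed to set beside that count. As single genes, 20.7% of all tested genes had every OGD library above every Control library and 24.1% had every one below. Of the 7 pairs, 5 ratios were higher in OGD, given here as mean ± SD with n = 4 each. Kdm3a over Kdm3b was 2.72 ± 0.0997 in OGD and 0.828 ± 0.0255 in Control. Ehmt2 over Ehmt1 was 3.27 ± 0.174 in OGD and 2.12 ± 0.201 in Control, and Kdm2a over Kdm2b was 1.48 ± 0.0918 in OGD and 1.16 ± 0.104 in Control. In the others the scarcer enzyme gained on the more abundant one: Ezh1 over Ezh2 was 0.178 ± 0.0426 in OGD and 0.102 ± 0.00846 in Control, and Phf8 over Phf2 was 0.514 ± 0.0418 in OGD and 0.325 ± 0.0250 in Control. The other 2 were lower in OGD. Suv39h1 over Suv39h2 was 1.56 ± 0.253 in OGD and 3.24 ± 0.285 in Control, and Kmt2a over Kmt2b was 0.680 ± 0.0428 in OGD and 1.02 ± 0.168 in Control, although neither Kmt2a nor Kmt2b passed alone. The pairs Kdm1a and Kdm1b, Kdm6a and Kdm6b, Setdb1 and Setdb2, and Kmt5b and Kmt5c overlapped.

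**Figure D3:**
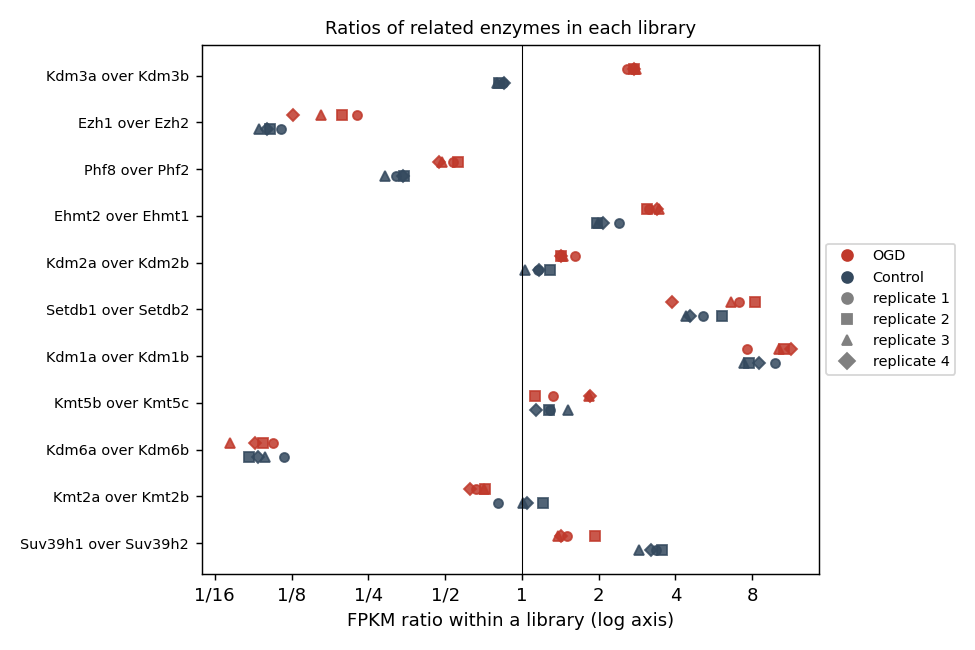
FPKM ratio of 11 pairs of related enzymes (x axis, log scale) in each OGD (red) and Control (dark) library, with marker shape giving the replicate. Kdm3a over Kdm3b lies at 2.58 to 2.80 in OGD and at 0.801 to 0.854 in Control libraries, on opposite sides of 1.

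Summed by mark, eraser over writer transcript levels differed most for DNA and H3K27, and are given as a description. For DNA, the 3 TET genes summed to 29.9, 34.6, 26.7 and 19.0 FPKM in OGD libraries and 14.3, 20.9, 21.3 and 19.0 FPKM in Control libraries. The 3 DNMT genes summed to 50.2, 54.5, 52.8 and 45.8 FPKM in OGD and 58.7, 72.3, 64.6 and 62.9 FPKM in Control libraries. TET over DNMT was 0.596, 0.634, 0.505 and 0.414 in OGD and 0.243, 0.289, 0.329 and 0.302 in Control libraries, so that the groups did not overlap even though the TET sums did. For H3K27, Kdm6a and Kdm6b over Ezh1 and Ezh2 was 0.586 to 0.918 in OGD and 0.492 to 0.584 in Control libraries, separated by little. With Kdm7a, which also acts on H3K27, among the erasers it was 0.783 to 1.42 in OGD and 0.5995 to 0.712 in Control libraries, further apart. For H3K4 the erasers were the 4 KDM5 genes, without the flavin-dependent Kdm1a and Kdm1b. The ratio was 1.53 to 2.06 in OGD and 1.48 to 1.62 in Control libraries with the Setd1b row of the higher mean. With the other Setd1b row it was 1.89 to 2.55 in OGD and 1.6001 to 1.80 in Control libraries, and with both rows summed 1.36 to 1.86 in OGD and 1.26 to 1.38 in Control libraries. With these erasers the groups were apart only with the other row alone, so their overlap depends on the Setd1b row. Sums with Kdm1a and Kdm1b among the erasers were not made. The groups overlapped for H3K9 and H3K36. The ratio for H3K9 was 2.06 to 2.50 in OGD and 1.92 to 2.11 in Control. For H3K36, with Kdm2a and Kdm2b over Setd2 and Nsd1, it was 1.09 to 1.24 in OGD and 1.03 to 1.23 in Control. With the 3 KDM4 genes, also counted under H3K9, added to the H3K36 erasers, it was 3.02 to 3.61 in OGD and 2.51 to 3.23 in Control, also with overlap. Nsd2 and Nsd3, listed as Whsc1 and Whsc1l1, were not among these writers. Their means were 21.1 and 13.8 FPKM in OGD and 22.4 and 12.6 FPKM in Control. The H3K36 ratios therefore hold only for the writers named, and sums with more writers were not made. H3K9 eraser and writer sums both were higher in every OGD library, at 214 to 261 FPKM against 157 to 173 FPKM in Control for 9 erasers and 104 to 107 FPKM against 80.5 to 85.0 FPKM in Control for 6 writers.

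**Figure D4:**
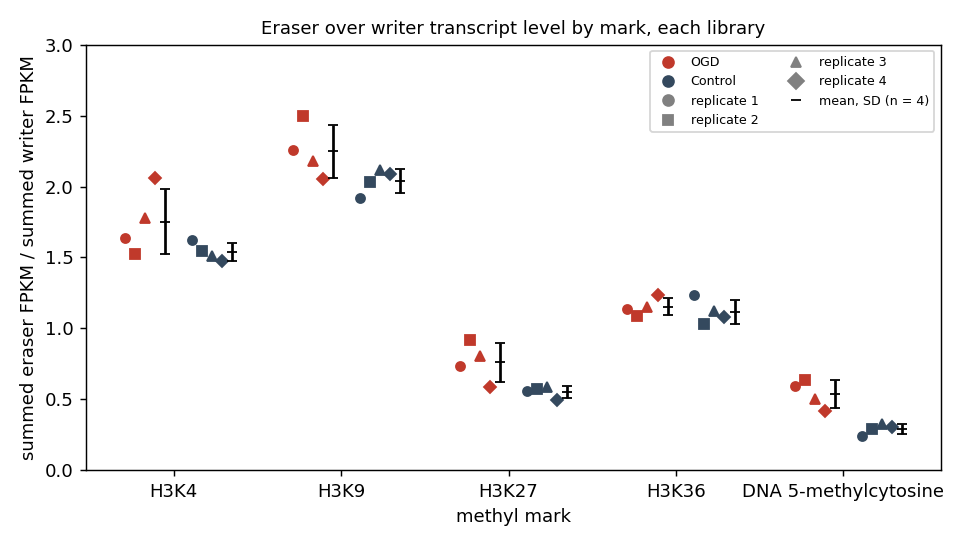
Summed FPKM of erasers over summed FPKM of writers for each mark (x axis) in each OGD (left, red) and Control (right, dark) library; black bars are mean and SD, n = 4. For DNA the ratio lies at 0.414 to 0.634 in OGD and 0.243 to 0.329 in Control libraries, while for H3K9 and H3K36 the groups overlap. For H3K4, with the KDM5 genes as erasers, they overlap with the Setd1b row of the higher mean plotted here but not with the other row.

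Genes around these enzymes moved in both directions. Over all tested genes, 22.7% were called higher and 26.8% lower, the shares to set beside the counts below. The same shares apply to the counts of PRC2 and DNA methylation partners above. Of 14 tested COMPASS partners, which support H3K4 methyltransferases, 6 were higher and 3 lower; Men1, the menin subunit, was at 32.9 ± 1.09 FPKM in OGD and 21.8 ± 1.09 FPKM in Control (adjusted p = 4.19e-05), and Hcfc1 at 10.9 ± 1.29 FPKM in OGD and 15.5 ± 2.17 FPKM in Control (adjusted p = 0.00613; SD, n = 4 each). Of 14 tested JmjC and AlkB oxygenases outside the set, 5 were higher and 2 lower, with Hspbap1 at 11.1 ± 1.86 FPKM in OGD and 4.56 ± 0.185 FPKM in Control (adjusted p = 1.86e-05). Alkbh5, an RNA N6-methyladenosine demethylase, was at 26.6 ± 2.06 FPKM in OGD and 13.6 ± 0.512 FPKM in Control (adjusted p = 5.52e-06). Of 12 other tested methyltransferases, 2 were higher and 1 lower, the larger changes being those of Trdmt1, a tRNA methyltransferase (log2 change 0.45), and Setmar (-0.39). Nsd2 and Nsd3 stand in the table under older symbols and were outside the rule; Whsc1 (-0.08) and Whsc1l1 (0.12) did not pass. Of 10 tested genes of the S-adenosylmethionine cycle, 4 were higher and 3 lower, with Mat2a the largest fall (log2 change -0.49). Ahcyl2, related to S-adenosylhomocysteine hydrolase, was at 11.6 ± 0.504 FPKM in OGD and 6.43 ± 0.395 FPKM in Control (adjusted p = 2.66e-05), and Mtr, methionine synthase, at 3.17 ± 0.480 FPKM in OGD and 1.79 ± 0.1996 FPKM in Control (adjusted p = 0.00256). Of 21 enzymes that make or use 2-oxoglutarate, succinate or fumarate, which feed or inhibit the dioxygenases, 3 were higher and 8 lower. Psat1 (log2 change 0.98) and Got1 (0.90) were the largest rises, and Sdhd (-0.42) and Sdhc (-0.37) the largest falls.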

How the data were processed

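RNA (RNeasy) went into Agilent SureSelect libraries that keep strand, according to the extract protocol. Per the file headers, the deposited table holds FPKM, 1 column per library. Trimmomatic, FastQC and the build rn6 (Rnor_6.0) are named in the submitters' processing notes; aligner, FPKM program, annotation and counting by strand: not given in the sources used here. Since FPKM holds no counts, no counting interval could be made; relative depth came from the commonest ratio of low values (at most 0.5 FPKM) to Control replicate 1, over 1200 to 1502 genes. Hprt1, Ndufa1 and Rps6 were listed at 0 throughout, so a 0 may be a failed estimate, and values of overlapping genes and close copies are uncertain. No 2 libraries were identical.

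Genes of at least 1 FPKM in at least 4 libraries were tested on log2(FPKM + 1) with limma (version 3.58.1, R 4.3.3), a group term and an empirical Bayes trend, with Benjamini-Hochberg adjustment over 11149 genes. The procedure was tested on simulated data. Members and lists were chosen with earlier results of these data known; the classes follow textbook activity, and Kdm4dl1 and the row of Kmt2d with Prkag1 were classed after the table was read. Of 184 list entries, 165 matched a symbol. Values in every library are given for called members with a log2 change of at least 0.5, the 2 most abundant of each kind and those listed as HIF targets. Others given so, or picked from a list beyond its 2 largest changes, were chosen after their values were seen, as were the 11 pairs and the sums by mark. Alternatives were a pseudocount of 0.1, no filter, a filter of 5 FPKM, quantile normalization, median-centring, rescaling outside mitochondrial genes, no trend, the replicate number as a block, and libraries left out. Sequences came from RefSeq windows (GRCr8). Other software was scipy 1.17.1, pandas 2.3.3, numpy 2.4.6 and matplotlib 3.10.9 under Python 3.11.15.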

Additional observations from a re-analysis of the deposited data

Results flagged for a closer look

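Among 44 groups of 4 values examined, 1 held a library far from the others, where chance gives about 2.2. Eed stood at 13.6 FPKM in OGD replicate 4, against 14.7 to 14.9 FPKM in the other OGD libraries; it was still above every Control library.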

How the results depend on the processing

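Across 17 alternatives the count of called members lay between 28 and 39 (35 as reported), of demethylases called higher between 9 and 14 (13), of methyltransferases called higher between 9 and 14 (11) and called lower between 3 and 4 (4). Kdm3b was the demethylase called lower in each. Of the 30 members called higher, 23 kept the call under each of the 17 that tested them, as did 4 of the 5 called lower. With the filter of 5 FPKM 52 members were tested. Ezh1 and Jmjd4, both among the 23, were not tested there. The median log2 change of demethylases was 0.29 to 0.45 and that of methyltransferases 0.15 to 0.26, both ranges set by single libraries left out; that of methyltransferases was 0.15 without Control replicate 1 and 0.16 without OGD replicate 2, and the cause was not tested. Wider class boundaries gave medians of 0.39 for demethylases and 0.21 for methyltransferases. Among the 22 members given in every library by rule, no called member changed sign; Kmt2e and Kdm1a, which did not pass, did, reaching -0.03 for Kmt2e without OGD replicate 2 and 0.02 for Kdm1a when rescaled outside mitochondrial genes. Same-numbered libraries did not deviate together (correlations of -0.22 to 0.16, and 1 of 4 OGD libraries correlated best with its own number), so the numbers were not taken as pairs; with the replicate block, 35 members and 5509 genes were called, 32 of the 35 being the same members. The block gave calls to Jmjd1c, Jmjd7 and Kmt2c and took them from Kdm4a, Kdm5d and Setd2. Chosen after seeing the data, other make-ups of the sums by mark moved the log2 eraser over writer ratio, OGD minus Control, to 0.37 for H3K4 with the other Setd1b row (0.18 as reported), 0.70 for H3K27 with Kdm7a (0.45 as reported) and 0.18 for H3K36 with the KDM4 genes (0.05 as reported). Without a depth in fragments, no limit from counts can be set for genes listed at 0.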
